A study of Rattus norvegicus with 24 samples.

Results

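The plasma membrane of a muscle fibre tears during ordinary contraction, and fibres carry a set of proteins that find and close such tears. The genes that code for 10 of these proteins and of the proteins of small membrane pits called caveolae were followed here across a first period of muscle disuse, a recovery and a second period of disuse in the tibialis anterior (TA), a muscle at the front of the lower leg, of aged rats. They are Trim72, Dysf, Cav3, Cav1, Cavin1, Cavin4, Anxa1, Anxa2, Anxa5 and Anxa6, 10 of the 13458 gene symbols in the deposited table, each taken from the row with the highest mean where a symbol had several (of these genes only Cav1, with 2 rows). They were chosen by name, partly because Trim72 differed between the periods of disuse. Trim72 is therefore described and not tested wherever limbs under disuse enter, and the difference between repeated and initial atrophy is described and not tested for all 10 genes.

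All animals were male Fischer 344 rats aged 23 ± 1 months. In 9 of them a cuff around the common peroneal nerve of the left limb delivered tetrodotoxin (TTX), a toxin that blocks nerve impulses by closing sodium channels, from a pump under the skin, so that the left TA fell inactive. The left TA was collected after 6 to 7 days of TTX (atrophy, n = 3), after 9 further days without TTX (recovery, n = 3), or after those periods and 5 to 6 more days of TTX (repeated atrophy, n = 3), always from different animals. Control was the right TA of the same 9 animals, which received no TTX but belonged to animals that had undergone the operation. Both limbs of 3 sham-operated animals, 1 for each time of harvest, gave 24 limbs in all. The study asked how aged muscle responds to repeated disuse, and no young or unoperated rats are among these samples.

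Membrane repair in muscle is a relay. Trim72 (also called MG53) is a muscle ubiquitin ligase that brings vesicles to a tear, and dysferlin, the product of Dysf, is a calcium-binding protein of the fibre surface that takes part in their fusion. Cav3, the caveolin of muscle fibres, binds both proteins, and loss of CAV3 or DYSF function causes muscular dystrophy in humans. Cav1 is the caveolin of endothelial cells, fibroblasts and fat cells, Cavin1 coats caveolae in all these cells and Cavin4 in muscle fibres. Annexins are proteins that bind membranes when calcium enters and form a cap over the tear.

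Trim72 lies in the rat genome build rn7 on chromosome 1 at 182613753 to 182621614, Cav3 on chromosome 4 at 145582168 to 145598143 and Dysf on chromosome 4 at 116502584 to 116690710, all on the plus strand. Their promoters are shown because Trim72 and Cav3 were the members with the lowest levels after repeated atrophy relative to control and Dysf the one with the highest. RefSeq windows on build GRCr8, from 250 bases before to 50 after the start of the gene, were found for 9 of the 10 genes, all but Anxa6, with 2 windows for Cav1. They are chr1:192043970-192044269 (plus strand) for Trim72, chr4:147137743-147138042 (plus strand) for Cav3 and chr4:118059918-118060217 (plus strand) for Dysf. Capitals mark a match to the site of MEF2, a transcription factor family active in muscle.
Trim72: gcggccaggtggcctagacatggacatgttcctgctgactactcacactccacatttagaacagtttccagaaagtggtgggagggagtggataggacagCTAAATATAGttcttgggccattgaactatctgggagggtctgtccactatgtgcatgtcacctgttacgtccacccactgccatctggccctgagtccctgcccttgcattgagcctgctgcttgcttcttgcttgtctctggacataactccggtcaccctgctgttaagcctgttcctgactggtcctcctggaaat
Cav3: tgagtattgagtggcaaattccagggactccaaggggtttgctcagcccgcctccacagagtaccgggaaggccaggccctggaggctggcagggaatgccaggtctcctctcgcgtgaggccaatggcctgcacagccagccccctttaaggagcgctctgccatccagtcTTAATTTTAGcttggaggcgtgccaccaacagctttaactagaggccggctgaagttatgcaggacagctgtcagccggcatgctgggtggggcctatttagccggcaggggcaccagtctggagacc
Dysf: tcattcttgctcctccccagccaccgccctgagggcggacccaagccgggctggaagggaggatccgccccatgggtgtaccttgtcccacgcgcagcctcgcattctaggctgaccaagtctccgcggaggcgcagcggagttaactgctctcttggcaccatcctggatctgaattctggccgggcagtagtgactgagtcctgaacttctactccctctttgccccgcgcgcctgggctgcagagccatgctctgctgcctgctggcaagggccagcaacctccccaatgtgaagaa

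Counted from the start of the gene, the MEF2 match began at position -150 in Trim72 and at -78 in Cav3, and these were the only members with one. Among all 33469 rat promoter windows of this length, 3.29% held such a match on either strand. The E-box CANNTG, bound by myogenic factors, was found in 72.1% of windows, 3 times in that of Trim72, once in that of Cav3 and not in that of Dysf. The narrower E-box CAGCTG, a subset of the first, was found in 15.1% of windows and once in that of Cav3. A match describes the letters only and is no evidence that a factor binds.

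Values are CPM, counts scaled so that each library sums to 1000000. Library sizes inferred from the commonest low value ranged from 18.9 to 30.9 (median 26.1) in multiples of 1000000 reads. Differences were tested with limma on log2(CPM + 1) in all 14031 rows above 0 in at least 3 of the 18 limbs of TTX animals, and a gene counted as changed where its fold change was 1.2 or more and its p, adjusted over all rows by Benjamini-Hochberg, was 0.05 or less. The 10 most abundant rows of each library held 24.3% to 32.8% of it in control, 13.0% to 25.6% after atrophy and 15.6% to 19.2% after repeated atrophy. Their share was below the control range in every disuse limb but the left limb of atrophy animal 2. Which genes these rows were was not examined. The median log2 fold change over all rows was 0.22 in atrophy, 0.02 in recovery and 0.20 in repeated atrophy, against 0.00, 0.01 and -0.01 once each library was rescaled to a trimmed mean of its log ratios. Rescaled values are given beside the calls of named genes that rescaling ended or added. On the first principal component, 2 limbs stood apart from their groups: the left limb of atrophy animal 2 scored 1.2 where the other 2 atrophy limbs scored 59.9 and 54.8, and the right limb of atrophy animal 3 scored 11.8 where the other control limbs scored -49.3 to -5.8. The 7 markers of muscle fibres, all detected in every limb, made up 118815 to 192258 CPM in control, 141716 to 151889 in recovery, 55408 to 128290 after atrophy and 81710 to 111601 after repeated atrophy, so the tissue label held in all groups. In whole muscle, fewer cells of a type and less RNA per cell cannot be told apart.

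In control muscle the genes differed widely in level. Per kilobase of transcript, Trim72 was the highest at 205 CPM per kb, followed by Anxa6 at 97.3, Cav3 at 76.0, Cavin4 at 65.1, Cav1 at 43.9, Dysf at 39.0 and Cavin1 at 30.3. The annexins Anxa2, Anxa5 and Anxa1 were lowest, at 18.2, 13.1 and 11.1 CPM per kb. Between control limbs, the coefficient of variation was smallest for Cav1 (12.8%) and Anxa6 (14.6%) and largest for Dysf (40.8%) and Cavin1 (43.9%).

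**Figure D1:**
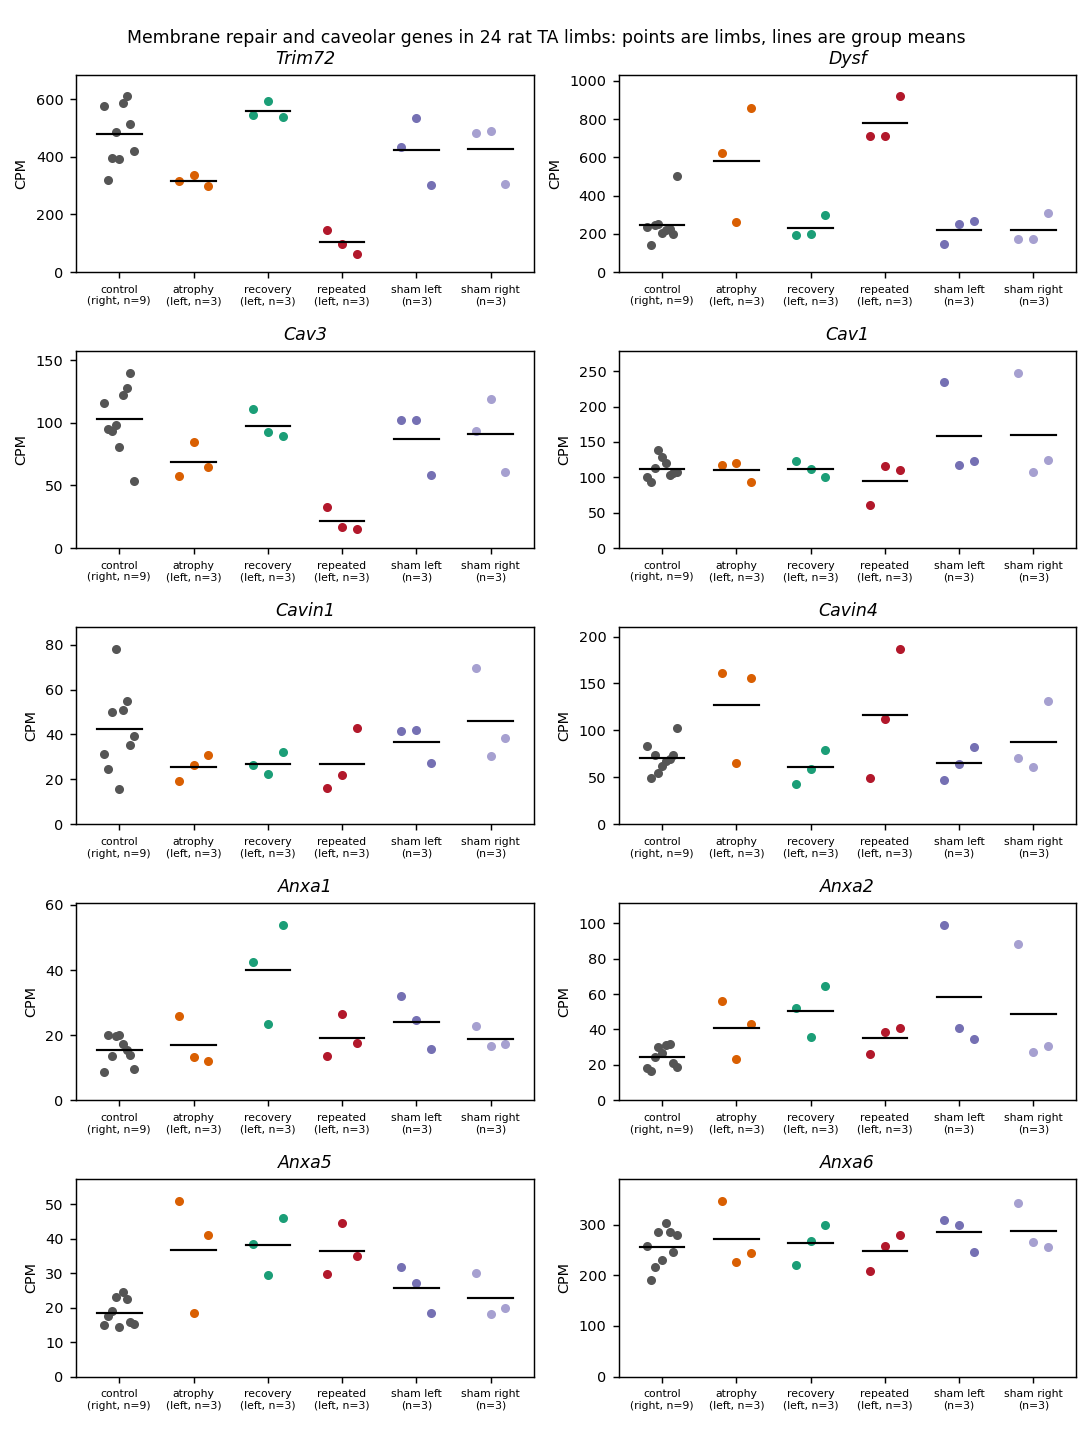
Level of each gene in CPM (linear axis from 0) in the 24 limbs, 1 panel a gene; points are limbs and lines are group means. In the repeated atrophy group all 3 limbs lie below every control limb for Trim72 and Cav3 and above every control limb for Dysf and Anxa5.

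The repair genes Trim72 and Dysf stood at opposite ends after repeated disuse. Trim72 was at 320 to 610 CPM in the 9 control limbs, with a median of 486. It was at 316, 337 and 300 CPM in atrophy limbs, 545, 595 and 538 in recovery limbs and 147, 97.6 and 64.3 in repeated atrophy limbs. The atrophy limbs overlapped the lower end of control, the recovery limbs lay within the control range, and the repeated atrophy limbs lay below every other limb of the study.

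As a description of the difference that led to its choice, the log2 fold change of Trim72 was -0.56 (SE 0.21) after atrophy and -2.26 (SE 0.21) after repeated atrophy against control, and -1.69 (SE 0.26) between repeated and initial atrophy. After recovery, the comparison that did not enter the choice, it was 0.25 (SE 0.21, adjusted p = 0.49, limma). Within animals, the left limb was below the right in all 3 atrophy animals (left minus right log2 differences of -0.87, -0.22 and -0.49) and in all 3 repeated atrophy animals (-1.12, -2.01 and -2.90). In recovery the 3 differences were -0.11, -0.04 and 0.07.

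Dysf was at 141 to 500 CPM in control, with a median of 227. The 500 CPM came from the right limb of atrophy animal 3, and the next highest control limb was at 249. Dysf was at 625, 264 and 860 CPM in atrophy limbs, 194, 198 and 297 in recovery limbs and 711, 709 and 918 in repeated atrophy limbs. All 3 repeated atrophy limbs were above every control limb, whereas the left limb of atrophy animal 2, at 264 CPM, was above 8 of the 9 control limbs and below the limb at 500 CPM.

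Dysf rose after repeated atrophy, with a log2 fold change of 1.73 (SE 0.31, adjusted p = 6.0e-04, limma), 3.31-fold on the CPM + 1 scale. It also rose after atrophy, by 1.16 (SE 0.31, adjusted p = 0.016), and the difference after recovery was -0.05 (SE 0.31, adjusted p = 0.95). From atrophy to recovery it fell, with a log2 fold change of -1.21 (SE 0.38, adjusted p = 0.037), and it was higher in repeated atrophy than in recovery by 1.78 (SE 0.38, adjusted p = 0.0039). With the animal as a block, the rise after repeated atrophy was 1.91 (SE 0.23, adjusted p = 0.0023), whereas the adjusted p was 0.16 after atrophy, 0.61 for recovery against atrophy and 0.074 for repeated atrophy against recovery.

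The call after atrophy was also lost when the values were rescaled (0.79, SE 0.27, adjusted p = 0.067) and without atrophy animal 1 (1.03, adjusted p = 0.17), where 1 of 13993 rows passed. The rise was 1.65 (adjusted p = 9.4e-04) without the left limb of atrophy animal 2 alone. That limb, left out after the data were seen, had the lowest Dysf of its group, so a larger rise was sure to follow. The call for recovery against atrophy was lost when rescaled as well (-0.87, adjusted p = 0.090). It also failed without atrophy animal 1 (-1.08, adjusted p = 0.13) or 3 (-0.85, adjusted p = 0.090), without recovery animal 1 (-1.10, adjusted p = 0.14) or 2 (-1.12, adjusted p = 0.14) and without repeated atrophy animal 2 (-1.21, adjusted p = 0.057). The rise after repeated atrophy passed under every setting tried. Set beside each other within a limb, Dysf amounted to 0.372 to 1.19 times the CPM of Trim72 in control limbs and to 4.85, 7.26 and 14.3 times in the repeated atrophy limbs. Since this ratio includes Trim72, it was not tested.

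The muscle caveolin Cav3 followed the course of Trim72. It was at 53.5 to 140 CPM in control, with a median of 98.4, and the 53.5 CPM came from the same right limb of atrophy animal 3 that was highest for Dysf. Cav3 was at 57.7, 84.9 and 64.7 CPM in atrophy limbs, 111, 92.5 and 89.1 in recovery limbs and 32.7, 16.5 and 15 in repeated atrophy limbs. No repeated atrophy limb reached the lowest limb of any other group.

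Cav3 fell after repeated atrophy, with a log2 fold change of -2.25 (SE 0.25, adjusted p = 2.6e-05, limma), 0.210 times the control level on the CPM + 1 scale. The value was -2.19 (SE 0.27, adjusted p = 0.0023) with the animal as a block and -2.62 (SE 0.32, adjusted p = 4.1e-05) when rescaled, and the fall passed under every setting tried. Against recovery, repeated atrophy was lower by a log2 fold change of -2.21 (SE 0.31, adjusted p = 4.1e-04), for which the block gave an adjusted p of 0.088. After the first atrophy, the difference was -0.54 (SE 0.25, 95% interval -1.06 to -0.02, adjusted p = 0.12), and without the right limb of atrophy animal 3 it was -0.65 (SE 0.21, adjusted p = 0.028). That limb, left out after the data were seen, had the lowest Cav3 of control, so a larger fall was sure to follow. After recovery the difference was -0.04 (SE 0.25, adjusted p = 0.95) over the 9 control limbs, although the left limb was below the right in all 3 recovery animals (-0.13, -0.46 and -0.65). Within animals, Cav3 was lower in the left limb of all 3 repeated atrophy animals (-1.51, -2.43 and -2.63) but of only 1 of 3 atrophy animals (-1.0, 0.07 and 0.27). Between repeated and initial atrophy the difference was -1.71 (SE 0.31), given as a description.

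The likeness of both genes extended over all 24 limbs. Among 6765 rows with a mean of at least 10 CPM, the row whose standardized log2 levels were closest to those of Trim72 was Cav3, and the row closest to Cav3 was Trim72, with a root mean square difference of 0.32 (0 for identical patterns). Next to Trim72 came Perm1 and Mgst3 (0.41 each), and next to Cav3 came Rpl3l (0.38) and Ldb3 (0.39). Dysf was closest to Fam214b, Usp5 and Klhl40 (0.30 each). These distances are descriptions over limbs that share animals and groups.

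**Figure D2:**
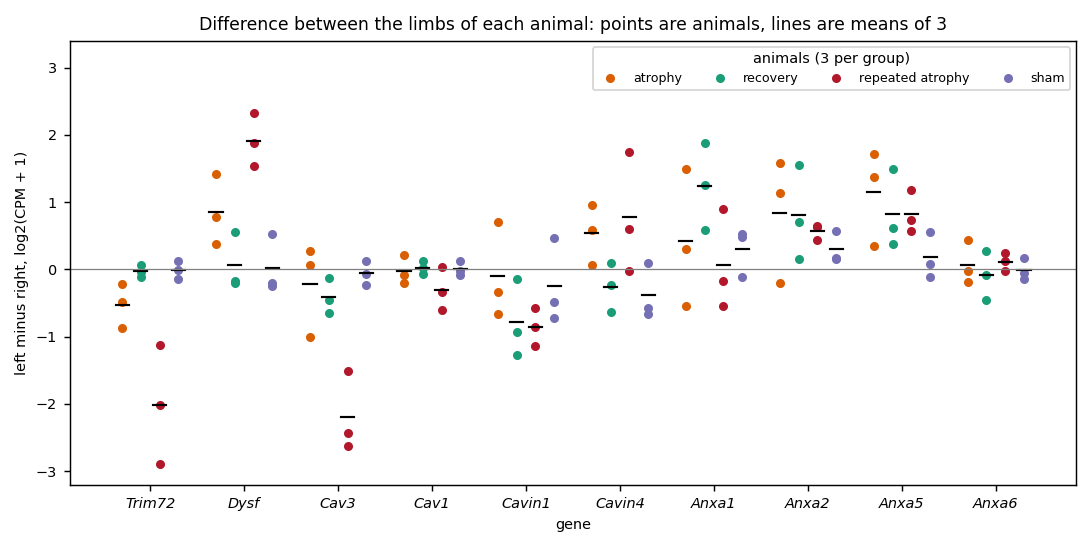
Left minus right log2(CPM + 1) for each gene within each animal, 3 animals in each of the atrophy, recovery, repeated atrophy and sham groups; lines are means of 3. For Trim72 and Cav3 the 3 repeated atrophy animals lie between -1.12 and -2.90, for Dysf between 1.53 and 2.33, and the sham animals lie between -0.25 and 0.52 for these 3 genes.

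Cav1, the caveolin of vessels and connective tissue, did not pass the test where Cav3 fell. It was at 93.0 to 138 CPM in control, 117, 121 and 94.1 in atrophy limbs, 123, 112 and 101 in recovery limbs and 60.7, 116 and 110 in repeated atrophy limbs. Only the left limb of repeated atrophy animal 1 lay below the control range. The log2 fold changes against control were -0.02 (SE 0.17), 0.00 (SE 0.17) and -0.28 (SE 0.17) in that order, with adjusted p of 0.94, 1.0 and 0.22 (limma).

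When rescaled, Cav1 was lower after repeated atrophy, with a log2 fold change of -0.66 (SE 0.16, adjusted p = 0.0052), so its call depends on the scaling. On the same rescaled values 7 of 10 endothelial markers were lower after repeated atrophy, with a median of -0.59, against 1 of 10 and a median of -0.23 before rescaling, where 12.1% and 6.24% of all rows were lower. The summed CPM of 10 endothelial markers, all detected in every limb, was 261 to 357 in control, 282 to 315 in atrophy limbs, 244 to 246 in recovery limbs and 215 to 302 in repeated atrophy limbs, and the limb with the lowest sum, that of repeated atrophy animal 1 at 215, was also the lowest for Cav1. The part of vessel content in the level of Cav1 was not tested. The second row of Cav1 was at 55.8 to 122 CPM in control and at 68.9, 70.8 and 57.1 after repeated atrophy. Relative to Cav3 in the same limb, Cav1 was at 0.758 to 2.02 times in control and at 1.86, 7.07 and 7.29 times after repeated atrophy.

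Neither of the cavins passed the test in the fit without a block. Cavin1 was at 15.9 to 78.2 CPM in control, 19.5, 26.5 and 30.9 in atrophy limbs, 26.2, 22.3 and 32.0 in recovery limbs and 16.2, 22.1 and 42.9 in repeated atrophy limbs. Its groups overlapped throughout. The log2 fold change after repeated atrophy was -0.61 (SE 0.35, adjusted p = 0.20), with left below right in all 3 animals (-0.57, -1.14 and -0.85), and adding the animal as a block gave -0.85 (SE 0.28, adjusted p = 0.043). Its differences after atrophy and recovery were -0.60 (SE 0.35, adjusted p = 0.23) and -0.52 (SE 0.35, adjusted p = 0.37). The row closest to Cavin1 over the 24 limbs was Notch3 (0.30), a receptor of vascular smooth muscle. The 6 markers of smooth muscle and pericytes, all detected in every limb, summed to 156 to 323 CPM in control and to 146, 241 and 176 after repeated atrophy. In that comparison 0 of 6 passed as deposited, 2 of 6 passed with the block, and 2 of 6 were lower when rescaled (median -0.59), where 34.3%, 27.1% and 12.1% of all rows did. The part of these cells in the level of Cavin1 was not tested.

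Cavin4, the muscle cavin, was at 49.6 to 103 CPM in control, 161, 65.4 and 156 in atrophy limbs, 42.9, 59.4 and 79.6 in recovery limbs and 48.9, 112 and 187 in repeated atrophy limbs. It was above the control range in 2 of 3 limbs of each disuse group and within or below it in the third. In the order atrophy, recovery and repeated atrophy, the log2 fold changes were 0.76 (SE 0.33, adjusted p = 0.097), -0.24 (SE 0.33, adjusted p = 0.70) and 0.53 (SE 0.33, adjusted p = 0.23, limma). Without the left limb of atrophy animal 2 the difference after atrophy was 1.18 (SE 0.34, adjusted p = 0.015), and without repeated atrophy animal 1 that after repeated atrophy was 0.99 (SE 0.31, adjusted p = 0.023). The limb of atrophy animal 2, left out after the data were seen, had the lowest Cavin4 of its group, so a larger difference after atrophy was sure to follow.

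By group mean over the limbs of the TTX animals, Anxa1 and Anxa2 were highest in recovery. Anxa1, an annexin of leukocytes and connective tissue cells as well as muscle, was at 8.58 to 20.1 CPM in control, 25.8, 13.4 and 12.1 in atrophy limbs, 42.6, 23.6 and 53.9 in recovery limbs and 13.6, 26.4 and 17.6 in repeated atrophy limbs. All 3 recovery limbs were above all 9 control limbs. It rose after recovery with a log2 fold change of 1.30 (SE 0.30, adjusted p = 0.015, limma), and recovery was higher than atrophy by 1.18 (SE 0.36, adjusted p = 0.033). Repeated atrophy was lower than recovery by a log2 fold change of -1.0 (SE 0.36, adjusted p = 0.049). Against control, it was 0.12 (SE 0.30, adjusted p = 0.81) after atrophy and 0.30 (SE 0.30, adjusted p = 0.48) after repeated atrophy, and both turned negative when rescaled (-0.23 and -0.06).

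Anxa2, which pairs with S100a10, was at 16.4 to 31.8 CPM in control, 56.0, 23.1 and 43.1 in atrophy limbs, 52.0, 35.5 and 64.6 in recovery limbs and 26.3, 38.3 and 40.9 in repeated atrophy limbs. Recovery limbs again lay above every control limb. The log2 fold change was 1.02 (SE 0.26, adjusted p = 0.022) after recovery, 0.67 (SE 0.26, adjusted p = 0.067) after atrophy and 0.52 (SE 0.26, adjusted p = 0.12) after repeated atrophy. Without the left limb of atrophy animal 2, the value after atrophy was 1.02 (SE 0.26, adjusted p = 0.0079). That limb, left out after the data were seen, had the lowest Anxa2 of its group, so a larger value was sure to follow.

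Anxa5, which binds exposed phosphatidylserine, rose in all 3 comparisons with control. It was at 14.3 to 24.6 CPM in control, 50.9, 18.4 and 40.9 in atrophy limbs, 38.4, 29.5 and 46.1 in recovery limbs and 29.6, 44.5 and 34.9 in repeated atrophy limbs. Only the left limb of atrophy animal 2 fell within the control range. The log2 fold changes were 0.86 (SE 0.25, adjusted p = 0.021), 1.00 (SE 0.25, adjusted p = 0.021) and 0.94 (SE 0.25, adjusted p = 0.0067, limma) after atrophy, recovery and repeated atrophy. When rescaled, the values after atrophy and repeated atrophy were 0.50 (adjusted p = 0.15) and 0.57 (adjusted p = 0.062), and without atrophy animal 1 or 3 the atrophy value was 0.54 (adjusted p = 0.27) or 0.69 (adjusted p = 0.12). Without repeated atrophy animal 2, the value after repeated atrophy was 0.80 (adjusted p = 0.076).

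With the animal as a block, none of these annexin calls passed. The adjusted p was 0.17 for Anxa1, 0.24 for Anxa2 and 0.20 for Anxa5 after recovery, 0.15 for Anxa5 after atrophy and 0.052 for Anxa5 after repeated atrophy. The block also ended the calls of Anxa1 for recovery against atrophy (adjusted p = 0.72) and repeated atrophy against recovery (adjusted p = 0.27). Each of these calls of Anxa1 was also lost without any of 4 animals: for recovery against atrophy, without atrophy animal 2 (1.05, adjusted p = 0.068) or 3 (0.98, adjusted p = 0.12) or recovery animal 1 (1.10, adjusted p = 0.12) or 3 (0.93, adjusted p = 0.12), and for repeated atrophy against recovery, without recovery animal 1 (-0.91, adjusted p = 0.15) or 3 (-0.75, adjusted p = 0.19) or repeated atrophy animal 1 (-0.79, adjusted p = 0.16) or 3 (-0.96, adjusted p = 0.11). The recovery calls were lost without recovery animal 1 (adjusted p = 0.10, 0.11 and 0.094 for Anxa1, Anxa2 and Anxa5) and without recovery animal 3 (0.099, 0.13 and 0.12). Over all rows, the calls after recovery went from 1084 to 184 and 537 in these fits, so the loss was not particular to these genes. Against the left limbs of the sham animals in place of the control limbs, the recovery differences were 0.68 (adjusted p = 0.29), -0.08 (adjusted p = 0.93) and 0.55 (adjusted p = 0.30) for Anxa1, Anxa2 and Anxa5.

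Anxa6, an abundant annexin of the fibre, showed no call. It was at 191 to 304 CPM in control, 347, 226 and 244 in atrophy limbs, 221, 268 and 300 in recovery limbs and 208, 258 and 280 in repeated atrophy limbs. The log2 fold changes were 0.08 (SE 0.16, 95% interval -0.26 to 0.42), 0.04 (SE 0.16, -0.30 to 0.39) and -0.03 (SE 0.16, -0.38 to 0.31), with adjusted p of 0.76, 0.90 and 0.90 (limma). After rescaling, it was lower after repeated atrophy, at -0.42 (SE 0.15, adjusted p = 0.048). No row came close to its pattern, with Nucb1 nearest at 0.71.

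In recovery, where Anxa1, Anxa2 and Anxa5 rose, markers of fibroblasts and of leukocytes were high as well. The 6 fibroblast markers, all detected in every limb, summed to 1725, 1083 and 2042 CPM in recovery animals 1, 2 and 3 against 220 to 576 in control, and 5 of 6 rose after recovery. The 10 markers of macrophages and leukocytes, also detected in every limb, summed to 292, 218 and 494 CPM against 71.1 to 246, and 4 of 10 rose. In that comparison 4.40% of all rows were higher. With the animal as a block 0 of 6 and 0 of 10 markers passed, where 0.0641% of all rows did. When rescaled, 6 of 6 fibroblast and 7 of 10 macrophage and leukocyte markers were higher, where 6.02% of all rows were. Recovery animal 2 had the lowest sum of both lists and the lowest Anxa1, Anxa2 and Anxa5 of the 3. For recovery against atrophy 5 of 6 fibroblast and 0 of 10 macrophage and leukocyte markers were higher, where 3.34% of all rows were. For repeated atrophy against recovery 4 of 6 and 2 of 10 were lower, where 6.29% of all rows were. After atrophy the macrophage and leukocyte sum was 371, 111 and 242 CPM, lowest in the limb with the lowest Anxa2 and Anxa5, and 0 of 10 markers passed, where 22.6% of all rows did. The fibroblast sum was 575, 254 and 391 CPM there, within the control range. After repeated atrophy the markers did not go with Anxa5: all 3 limbs were above control for Anxa5, whereas the macrophage and leukocyte sums (82.7, 186 and 203 CPM) and the fibroblast sums (357, 571 and 424 CPM) lay within the control range, and no marker of either list passed. The rows closest to Anxa2 over the 24 limbs were Lcp1 (0.34) and Laptm5 (0.36), both genes of leukocytes. The part of these cells in the annexin levels was not tested.

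**Figure D3:**
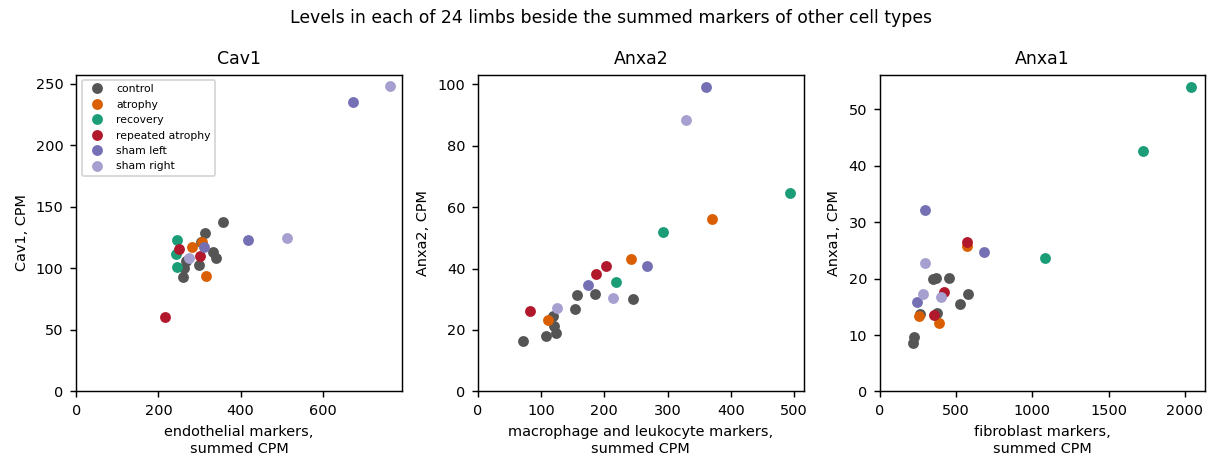
Level of Cav1, Anxa2 and Anxa1 in CPM (vertical axes) in each of the 24 limbs against the summed CPM of endothelial, macrophage and leukocyte, and fibroblast markers (horizontal axes), coloured by group. Sham animal 1 stands apart for Cav1 (235 and 248 CPM) and Anxa2 (99.0 and 88.3 CPM), and the recovery limbs reach 1083 to 2042 CPM of fibroblast markers.

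Counted together without Trim72, 2 of 9 genes rose after atrophy (Dysf and Anxa5) and 0 fell, where 22.6% of all rows passed the test (20.3% higher and 2.33% lower). After recovery, with Trim72 included, 3 of 10 rose (Anxa1, Anxa2 and Anxa5), where 7.73% of all rows passed (4.40% higher and 3.33% lower). After repeated atrophy 2 of 9 rose (Dysf and Anxa5) and 1 fell (Cav3), where 34.3% passed (28.1% higher and 6.24% lower). For recovery against atrophy 1 of 9 was higher (Anxa1) and 1 lower (Dysf), where 17.9% of all rows passed (3.34% higher and 14.5% lower). For repeated atrophy against recovery 1 of 9 was higher (Dysf) and 2 were lower (Cav3 and Anxa1), where 27.2% passed (21% higher and 6.29% lower). The 3 annexins of recovery lay above all control limbs, as did 5.57% of all rows, and after repeated atrophy 2 of 9 genes without Trim72 (Dysf and Anxa5) lay above and 1 (Cav3) below all control limbs, as did 16.5% and 3.87% of all rows. The counts for both disuse periods are near the share of all rows, and none of these counts was tested.

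Rescaling removed both calls after atrophy, where 9.68% of all rows then passed (4.73% higher and 4.95% lower). After repeated atrophy it left 1 of 9 higher (Dysf) and 3 lower (Cav3, Cav1 and Anxa6), where 25.2% of rows passed (13.1% higher and 12.1% lower). For repeated atrophy against recovery it added Cav1 (-0.64, SE 0.19, adjusted p = 0.026) and Anxa2 (-0.85, SE 0.27, adjusted p = 0.032) as lower, where 21.7% of all rows passed, and for recovery against atrophy it left Anxa1 alone, where 10.7% did. With the animal as a block, the counts were 0 of 9, 0 of 10 and 3 of 9 after atrophy, recovery and repeated atrophy, where 0%, 0.0641% and 27.1% of all rows passed; the 3 were Dysf, Cav3 and Cavin1. For recovery against atrophy and repeated atrophy against recovery the block left 0 of 9 in both, where 0.0143% and 0.0855% of all rows passed, so few calls were left anywhere in the table.

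**Figure D4:**
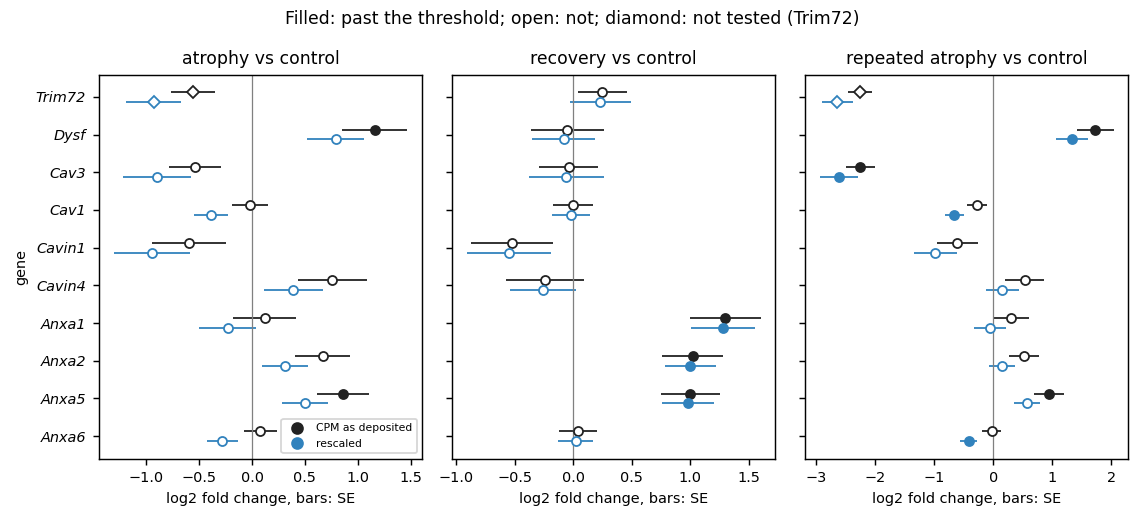
Log2 fold change against control (horizontal axes, bars are SE from limma) of the 10 genes after atrophy, recovery and repeated atrophy, from the CPM as deposited (black) and rescaled (blue); filled points passed the test, open points did not, and diamonds mark Trim72 where it was not tested. Dysf at 1.73 and Cav3 at -2.25 after repeated atrophy are filled on both scales.

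The other genes of the repair pathway and of caveolae were examined as 7 lists with 53 genes, of which 48 were measured and tested and 5 (Anxa9, Fer1l5, Ano5, Chmp2b and Chmp4b) were not analysed here. Of the 48, 16 rose and 2 fell after atrophy, 3 rose and 1 fell after recovery, and 19 rose and 4 fell after repeated atrophy. The shares of all rows that were higher in these comparisons were 20.3%, 4.40% and 28.1%, those of rows that were lower were 2.33%, 3.33% and 6.24%, and the counts were not tested against those shares. When rescaled, the counts were 7 and 4, 3 and 3, and 13 and 10, where 4.73% and 4.95%, 6.02% and 6.04%, and 13.1% and 12.1% of all rows were higher and lower. With the block, 0, 0 and 20 passed, where 0%, 0.0641% and 27.1% of all rows did.

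Of the 9 other caveola components, Ehd4 and Pacsin3 rose after both disuse periods and Ehd3 fell after the second. Pacsin3, a protein that bends membranes in muscle, had a mean of 410 ± 109 CPM (SD, n = 9) in control, 761 in atrophy limbs, 314 in recovery limbs and 1310 in repeated atrophy limbs, with a log2 fold change of 0.88 (SE 0.25, adjusted p = 0.019, limma) and 1.71 (SE 0.25, adjusted p = 1.4e-04) in the disuse groups. Ehd4, an ATPase that sits at the neck of caveolae and on endosomes, rose by 1.53 (SE 0.30, adjusted p = 0.0065) after atrophy and by 1.56 (SE 0.30, adjusted p = 9.7e-04) after repeated atrophy. Its relative Ehd3 had a log2 fold change of -1.16 (SE 0.24, adjusted p = 0.0014) after repeated atrophy. The median of the list was 0.13 after atrophy and -0.08 after repeated atrophy, against 0.22 and 0.20 for all rows. When rescaled, Pacsin3 did not pass after atrophy (0.51) and Ehd3 did (-0.86), which left 1 higher and 1 lower. After repeated atrophy the rescaled counts were 2 higher and 5 lower, as Cavin2 (-0.66), Cavin3 (-0.62), Ehd1 (-0.46) and Ehd2 (-1.02) joined Ehd3. Of all rescaled rows 4.73% were higher and 4.95% lower after atrophy, and 13.1% and 12.1% after repeated atrophy.

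Of 7 other annexins, Anxa4 and Anxa7 rose after both periods and Anxa11 after the second. Anxa4 rose by 1.13 (SE 0.24, adjusted p = 0.0074, limma) after atrophy and 1.06 (SE 0.24, adjusted p = 0.0026) after repeated atrophy, and Anxa7 by 1.08 (SE 0.30, adjusted p = 0.018) and then by 1.30 (SE 0.30, adjusted p = 0.0030). When rescaled, Anxa7 after atrophy (0.72) and Anxa11 after repeated atrophy (0.20) did not pass. None of the 7 passed after recovery. Of the S100 proteins that bind annexins, 3 of 4 rose after recovery, where 4.40% of all rows were higher: S100a4 by 2.14 (SE 0.31, adjusted p = 0.0011), S100a11 by 1.47 (SE 0.35, adjusted p = 0.018) and S100a10 by 1.33 (SE 0.23, adjusted p = 0.0031). S100a4 also rose after atrophy, by 1.00 (SE 0.31, adjusted p = 0.028), and after repeated atrophy, by 1.77 (SE 0.31, adjusted p = 4.4e-04), and S100a10 rose after repeated atrophy, by 0.73 (SE 0.23, adjusted p = 0.017). When rescaled, S100a4 after atrophy (0.65) and S100a10 after repeated atrophy (0.36) did not pass. The 4 genes summed to 93.6 to 193 CPM in recovery and to 36.0 to 76.6 in control. With the block, none of the 4 passed after recovery and 1 passed after repeated atrophy, where 0.0641% and 27.1% of all rows did.

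Of 7 partners of dysferlin, 2 rose and 1 fell after atrophy and 2 rose and 2 fell after repeated atrophy. Over all rows 20.3% rose and 2.33% fell after atrophy, and 28.1% rose and 6.24% fell after repeated atrophy. Capn2, the large subunit of a ubiquitous calcium-activated protease, rose by 1.27 (SE 0.34, adjusted p = 0.016, limma) after atrophy and 1.33 (SE 0.34, adjusted p = 0.0058) after repeated atrophy, and Capns1, the small subunit, by 0.55 (SE 0.18, adjusted p = 0.035) and then by 0.87 (SE 0.18, adjusted p = 0.0014). Capn1, another large subunit, was at 0.08 (SE 0.18, adjusted p = 0.78) and -0.02 (SE 0.18, adjusted p = 0.95). The muscle calpain Capn3 was lower after repeated atrophy, at -0.51 (SE 0.18, adjusted p = 0.033). Bin1, which shapes the transverse tubules of the fibre, was lower after both periods, with -0.70 (SE 0.22, adjusted p = 0.031) and -0.68 (SE 0.22, adjusted p = 0.024). When rescaled, Capns1 did not pass after atrophy (0.18) and Capn3 was also lower there (-0.83).

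The ESCRT genes, whose products pinch off damaged membrane, had the most members of the 7 lists that rose after each disuse period. The counts were 7 of 11 in atrophy limbs, 0 in recovery limbs and 6 in repeated atrophy limbs. Over all rows 20.3%, 4.40% and 28.1% rose. The median log2 fold change of the list was 0.72, 0.08 and 0.59, against 0.22, 0.02 and 0.20 for all rows. Pdcd6, the calcium sensor ALG-2 that recruits them, rose by 1.13 (SE 0.25, adjusted p = 0.0084, limma) after atrophy and by 1.40 (SE 0.25, adjusted p = 5.2e-04) after repeated atrophy. Pdcd6ip (ALIX), Tsg101 and Chmp2a rose after repeated atrophy by 1.10, 1.10 and 1.00. When rescaled, 4 and 5 of the 11 remained higher after atrophy and repeated atrophy, with medians of 0.36 and 0.22. Of all rescaled rows 4.73% and 13.1% were higher.

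Of 6 genes for vesicle fusion and acid sphingomyelinase, Vamp3 rose after atrophy (0.67, SE 0.15, adjusted p = 0.0092, limma) and repeated atrophy (0.79, SE 0.15, adjusted p = 9.1e-04), and Snap23 after repeated atrophy (0.48, SE 0.18, adjusted p = 0.047). When rescaled, Vamp3 did not pass after atrophy (0.31) nor Snap23 after repeated atrophy (0.10), and Syt7 was lower after repeated atrophy (-0.57), which left 0 of 6 higher after atrophy and 1 higher and 1 lower after repeated atrophy. Of all rescaled rows 4.73% were higher after atrophy, and 13.1% were higher and 12.1% lower after repeated atrophy. The SNARE gene Stx4 fell after recovery (-0.58, SE 0.13, adjusted p = 0.016). Trim72 is also known as a ligase for signalling proteins, with Ube2h as its E2 enzyme. Of its 4 partners, Irs1, the adaptor of the insulin receptor, was lower after atrophy (-0.52, SE 0.18, adjusted p = 0.047) and repeated atrophy (-1.15, SE 0.18, adjusted p = 2.4e-04), while Ube2h was higher (0.83, SE 0.21, adjusted p = 0.013, and 0.80, SE 0.21, adjusted p = 0.0077). Ptk2 rose after repeated atrophy by 0.43 (SE 0.16, adjusted p = 0.041). On the rescaled values Ube2h (0.47 and 0.42) and Ptk2 (0.06) did not pass, and Insr, the insulin receptor, was lower after repeated atrophy (-0.71), which left 0 of 4 higher and 2 lower there. Transcript levels do not bear on whether the proteins are degraded.

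**Figure D5:**
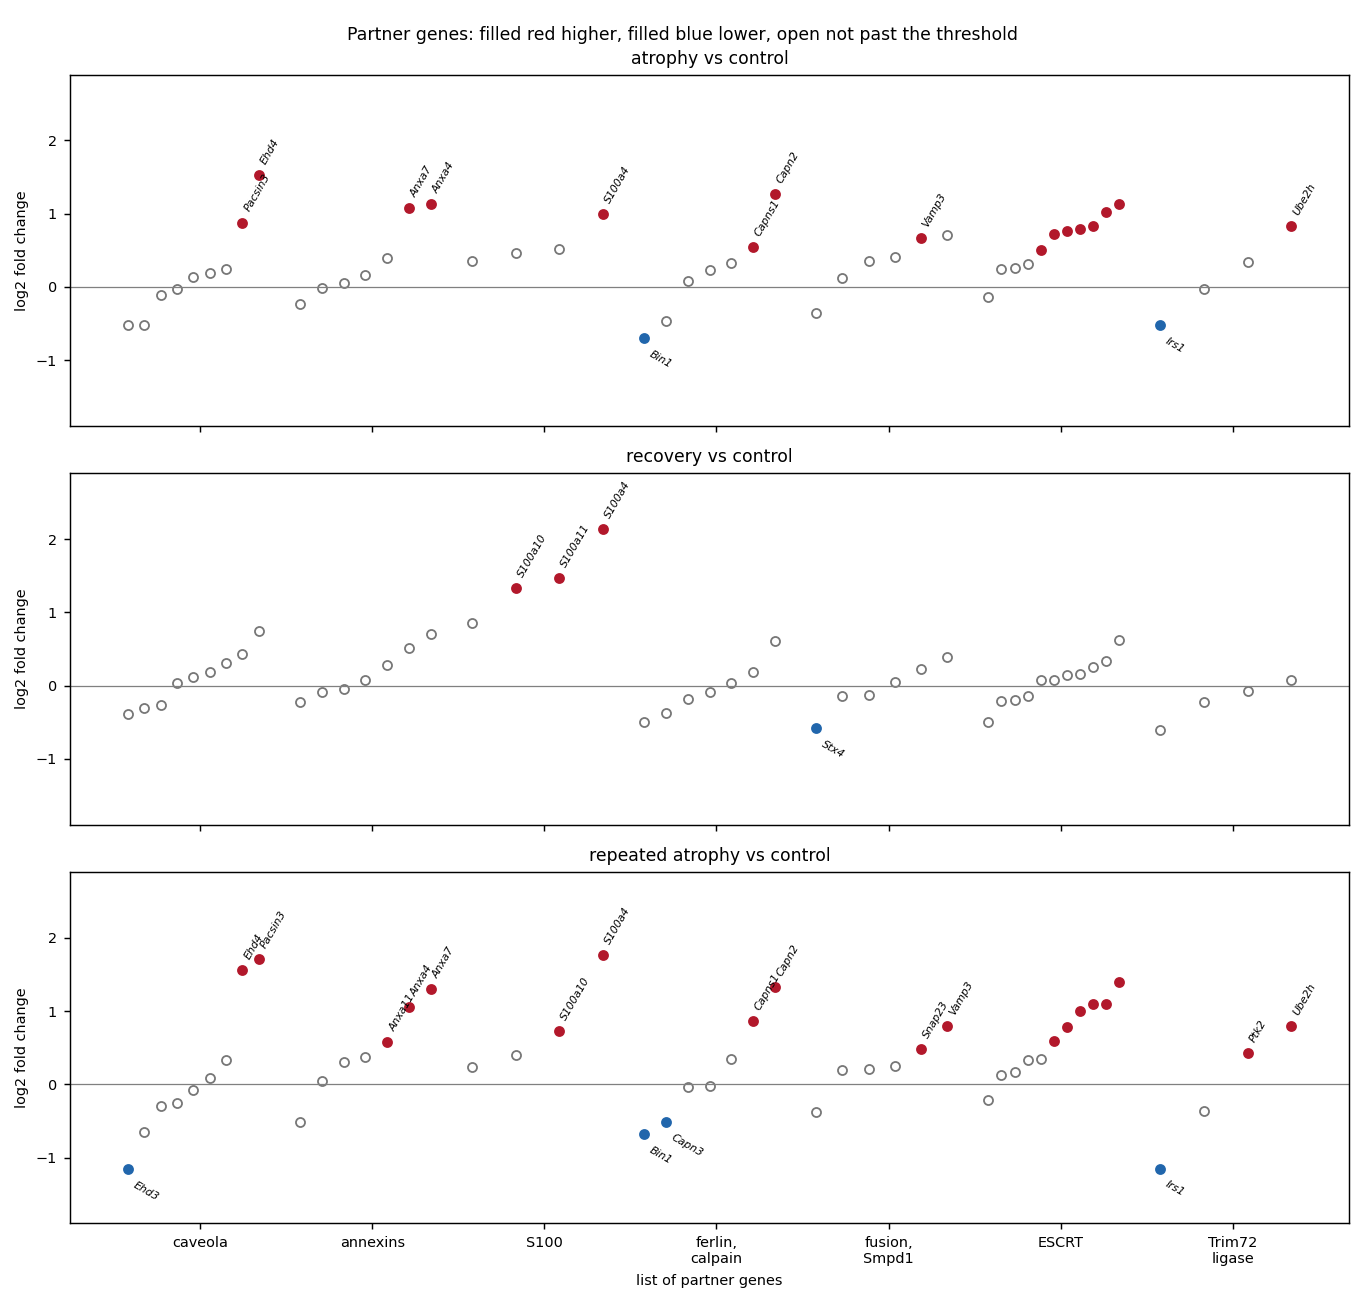
Log2 fold change against control (vertical axes) of the 48 measured genes in 7 lists (horizontal axis) after atrophy, recovery and repeated atrophy, sorted within each list; filled red points rose, filled blue points fell and open points did not pass the test. In recovery only 3 S100 genes and Stx4 are filled, and the ESCRT list has 7 and 6 filled points in the disuse groups.

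Sham operation alone gave no call among the 10 genes. In the left limbs of the sham animals Trim72 was at 433, 536 and 303 CPM, Dysf at 145, 250 and 267, and Cav3 at 102, 102 and 58.0. Of these values, the 303 CPM of Trim72 lay below the range of the 9 control limbs and the rest lay within it. Against control, limma passed 0 of 10 genes and 0% of 13822 rows, of which 1904 had an unadjusted p under 0.05. Anxa2, Anxa1 and Cav1 had an unadjusted p of 0.0020, 0.042 and 0.044 with log2 differences of 1.10, 0.62 and 0.43, and an adjusted p of 0.23, 0.36 and 0.36. Sham animal 1 stood apart, with Cav1 at 235 CPM in the left and 248 in the right limb, Anxa2 at 99.0 and 88.3, and endothelial markers that summed to 673 and 765. Every other limb of the study was at or below 138 CPM for Cav1.

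Between the left and right limbs of the sham animals, 0 of 10 genes and 0% of 13483 rows passed with the animal as a block (576 rows had an unadjusted p under 0.05), and the mean left minus right difference was -0.01 (SE 0.09) for Trim72, 0.02 (SE 0.17) for Dysf and -0.06 (SE 0.10) for Cav3. Across the 3 times of harvest, the right limbs of the TTX animals gave 0 calls among the 10 genes and 0% of 13600 rows (1892 with an unadjusted p under 0.05). Cav3 had the smallest unadjusted p of the 10 in that comparison, 0.041 (adjusted p = 0.33), with group means of the right limbs that spanned 0.70 on the log2 scale.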

How the data were processed

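Both TA muscles of 12 aged rats were measured by RNA-seq of polyadenylated RNA with strand-specific libraries. The authors removed contaminant reads with Bowtie2 (version 2.2.5 in the submitters' processing notes), aligned to rn7 with STAR and processed the reads in Partek Flow, and the annotation and counting step are not given in the sources used here. The values the authors deposited are CPM, each column summing to 1000000. The study's methods name a median of ratios normalization instead, which would not in general give equal sums, so the stated and the deposited scale differ. Of 27 value columns, 3 matched no sample record and were not used. Columns of the authors' own comparisons were not used. The 9 right limbs of the TTX animals formed the control group.

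Of 14271 rows, 28 exact duplicates were dropped. Between 86.0% and 88.0% of low values (under 1 CPM) were whole multiples of the smallest step within a tolerance of 0.01 of the step, so reads were not treated as recovered and no count test was run. Depth is therefore inferred and no counting interval is given. Rows above 0 in at least 3 fitted samples entered limma 3.58.1 (R 4.3.3) on log2(CPM + 1) with an intensity trend, 4 groups and 18 limbs in 1 fit without a block, Benjamini-Hochberg adjustment over all rows and 95% intervals. The sham comparisons and the moderated F test over times of harvest were fitted separately. The pseudocount of 1 makes the fold changes of low genes too small. Fits were tested on simulated data.

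The labels give each limb's animal, so the animal as a fixed block pairs the limbs. Deviations from group means correlated between the limbs of an animal by 0.28 on average over 12 animals and 10619 rows, by 0.62 to 0.84 in the 3 sham animals and by -0.19 to 0.60 (mean 0.12, 4 below 0) in the 9 TTX animals. The alternatives tried were a pseudocount of 0.1 or 10, rescaling of each library to a trimmed mean of its log ratios (trimming 30% of the ratios and 5% of the levels), quantile normalization, no filter, a filter on a mean level of 10 CPM or more, the sum of a symbol's rows, no trend, a fold change of at least 1.5, other control limbs, only the groups compared, and leaving out each animal in turn. Leaving out single limbs, and rescaling together with the block, were chosen after seeing the data. Tests without the block measure the spread between these animals within groups and leave out the pairing of their limbs.

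The members, lists and markers were chosen with earlier results of these data known. Of each list, the counts and up to 4 genes with the largest change among those that passed in a comparison are named. Genes whose call rescaling changed, and Capn1, are named besides. For each member up to 3 rows of other symbols with the smallest root mean square difference over 24 limbs are named. Promoters came from RefSeq (GRCr8), and figures were drawn with matplotlib 3.10.9.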

Additional observations from a re-analysis of the deposited data

Results flagged for a closer look

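Dysf in the control limbs had 1 value far from the others. The right limb of atrophy animal 3 was at 500 CPM and the nearest control limb at 249, a gap of 0.55 of the whole range of the 9 limbs on the log2(CPM + 1) scale, above Dixon's 95% critical value for 9 samples. Of the 10 genes tested this way in the control limbs, it was the only one, and chance flags about 1 in 20. The same limb had the lowest Cav3 (53.5 CPM) and the highest Cavin4 (103 CPM) of the control group and a first principal component score of 11.8, where the other control limbs scored -49.3 to -5.8. Without this limb, the log2 fold change of Dysf was 1.30 (SE 0.26, adjusted p = 0.0031, limma) after atrophy and 1.86 (SE 0.26, adjusted p = 8.8e-05) after repeated atrophy, and that of Cav3 after atrophy was -0.65 (SE 0.21, adjusted p = 0.028). The limb was left out after the data were seen. As it had the highest Dysf and the lowest Cav3 of the control group, larger differences were sure to follow.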

How the results depend on the processing

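The fall of Cav3 and the rise of Dysf after repeated atrophy passed under every alternative tried. Of 2000 values of single genes under alternatives, 1785 kept their direction and their side of the threshold, 117 changed sign but had no call either way, 70 lost their call, 22 gained one, 5 untested values moved by more than the spread (2 of them with a change of sign) and 1 reversed: Anxa2 after recovery, at -0.08 against the left limbs of the sham animals. The counts of genes that passed changed as follows. After atrophy, 2 became 0 when rescaled, under quantile normalization, with the replicate block, with the block and rescaling together, and against the group's own right limbs or the sham left limbs, 3 with the filter at 10 CPM and without the right limb of atrophy animal 3, and 4 without the left limb of atrophy animal 2. After recovery, 3 became 0 with the block, with the block and rescaling, and against own right limbs or sham left limbs, and 2 against all 12 right limbs. After repeated atrophy, 3 became 4 when rescaled, quantile normalized or with the block and rescaling, and 2 against sham left limbs. Recovery against atrophy went from 2 to 1 when rescaled or quantile normalized and to 0 with the block, with the block and rescaling, and with only the groups compared. Repeated atrophy against recovery went from 3 to 5 when rescaled or quantile normalized, to 2 (without Anxa1) with no filter, no trend or only the groups compared, and to 0 with the block, alone or with rescaling. Leaving out 1 animal at a time gave 0 to 4 after atrophy, 0 to 3 after recovery, 2 to 4 after repeated atrophy, 0 to 3 for recovery against atrophy and 2 to 3 for repeated atrophy against recovery. Where a call was lost the cause was not tested. The block changed no call of these genes against control beyond those given beside the results. Over all rows, the counts that passed after atrophy were 3171 in the fit reported, 1358 when rescaled, 0 with the block, 0 against own right limbs and 3 against sham left limbs, and leaving out 1 animal gave 1 to 4841. After recovery they were 1084, 1692 when rescaled, 9 with the block, and 49 and 305 against own right and sham left limbs, and leaving out 1 animal gave 184 to 1478. After repeated atrophy they were 4812, 3539 when rescaled, 3806 with the block, and 3812 and 1203 against own right and sham left limbs. Leaving out 1 animal gave 2573 to 5254 there. For recovery against atrophy they were 2505, 1499 when rescaled, 2 with the block and 1376 with only the groups compared, and for repeated atrophy against recovery 3823, 3043 when rescaled and 12 with the block. With 3 animals a group, and depth only inferred, a p above the threshold does not show that levels were alike.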

Other observations

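The left limb of atrophy animal 2 was nearer to control than the other 2 atrophy limbs for several genes at once. It had 264 CPM of Dysf where the others had 625 and 860, 65.4 CPM of Cavin4 where they had 161 and 156, 23.1 CPM of Anxa2 where they had 56.0 and 43.1, and 18.4 CPM of Anxa5 where they had 50.9 and 40.9. Its muscle fibre markers summed to 128290 CPM, against 55408 and 61236. For Trim72 the levels of the 3 atrophy limbs were closer together, at 316, 337 and 300 CPM, with a coefficient of variation of 5.89%, the second lowest of the 6 groups after the 5.55% of recovery. Within animals, however, the left limb of atrophy animal 2 was again the nearest to its right limb (-0.22, against -0.87 and -0.49). The muscle fibre markers of that limb were higher than those of all 3 repeated atrophy limbs (81710 to 111601 CPM).

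In the repeated atrophy animals, the order of the limbs differed between genes. Animal 1 had the highest Trim72 (147 CPM) and Cav3 (32.7 CPM) of the 3 and the lowest Cav1 (60.7 CPM), Cavin4 (48.9 CPM) and Anxa5 (29.6 CPM). Animal 3 had the lowest Trim72 (64.3 CPM) and Cav3 (15 CPM) and the highest Dysf (918 CPM) and Cavin4 (187 CPM). With 3 limbs, such an order was not tested.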
